A study of Mus musculus with 6 samples.

Results

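Genes of the mitotic spindle, the kinetochore and the spindle checkpoint were followed in mouse hearts that overexpress the miR-302-367 cluster, a run of small regulatory RNAs made from a single transcript. The members are a fixed list, chosen with earlier results of these data known, of 53 genes of these structures, condensin, anaphase and mitotic entry. Of these, 52 had a probe assigned to that gene alone, out of 22180 genes measured in all, and Ncapg, which had none, was not analysed here. RNA of heart tissue was hybridised to 6 Affymetrix arrays. The 3 control samples had the genotype Nkx2.5-Cre. The 3 transgenic samples had the genotype Nkx2.5-Cre; R26R-miR302-367, in which Cre turns on a copy of the cluster at the Rosa26 locus. All 6 thus carry Nkx2.5-Cre, whose Cre acts in cardiac progenitors and the cells that descend from them, and all share a mixed C57BL/6 x 129S6 background. The labels give the age both as 14 days after birth and, in another field, as E14. They do not say whether the samples are separate animals, so the error behind each p-value is that among these 3 and 3 samples, some of which may share an animal. Xist and Y-linked genes put 2 of 3 control and 1 of 3 transgenic samples as male-like, so each group held more than 1 animal. In a bulk sample, a change in the number of cells of a type cannot be told apart from a change in RNA per cell.

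The cluster holds miR-302a, miR-302b, miR-302c, miR-302d and miR-367. The 3p arms of 4 of them are shown, since they are among what the transgenic hearts overexpress. Bases 2 to 8, the seed that pairs with target messages, are in capitals. miR-302b-3p and miR-302d-3p share a seed, that of miR-302c-3p is listed 1 base further along the same stretch, and miR-367-3p has another. The sequences are those of RefSeq, build GRCm38.p6.
mmu-miR-302b-3p: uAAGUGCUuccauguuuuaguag
mmu-miR-302c-3p: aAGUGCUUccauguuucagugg
mmu-miR-302d-3p: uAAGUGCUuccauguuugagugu
mmu-miR-367-3p: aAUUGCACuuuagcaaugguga
Mature microRNAs were not measured. The array probes of the 5 cluster genes were between 2.99 and 6.61 higher in transgenic hearts on the log2 scale, and no transgenic sample overlapped a control sample.

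A cell that divides builds a kinetochore on the centromere of each chromosome, to which spindle microtubules attach. The spindle checkpoint holds the anaphase-promoting complex in check until the attachments are made, after which Cdc20 activates the complex and sister chromatids part. Most of these genes are transcribed late in the cell cycle, and heart muscle cells largely stop dividing soon after birth. The study's stated subject is the role of the cluster in heart muscle growth by division and in maturation.

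The mitotic genes were higher in transgenic hearts, by 1.42-fold at the median. Of 52 members, 36 rose and 0 fell at an adjusted p under 0.05 (limma, Benjamini-Hochberg over all genes), where 5.35% of all genes rose and 5.76% fell. At an unadjusted p under 0.05 limma gave 45 members higher and 0 lower, against 11.9% and 13.4% of all genes. The median log2 fold change of the members was 0.51, with an interquartile range of 0.40 to 0.69, against -0.03 over all genes. In 45 members every transgenic value lay above every control value, which held for 14.2% of all genes. The changes were moderate in size. Of the 36 members that rose, 19 rose by at least 1.5-fold (2.16% of all genes) and 3 by at least 2-fold (0.509% of all genes), namely Cenpk, Birc5 and Cenpn. With limma's test against a minimum fold of 1.5, 0 of 52 members passed (0.185% of all genes passed as higher), and 7 did at an unadjusted p under 0.05 (1.02% of all genes). The count of 36 dropped to 22 without control 1, 18 without transgenic 1 and 21 without transgenic 3. With other samples left out it was 27 without control 2, 28 without control 3 and 26 without transgenic 2.

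**Figure D1:**
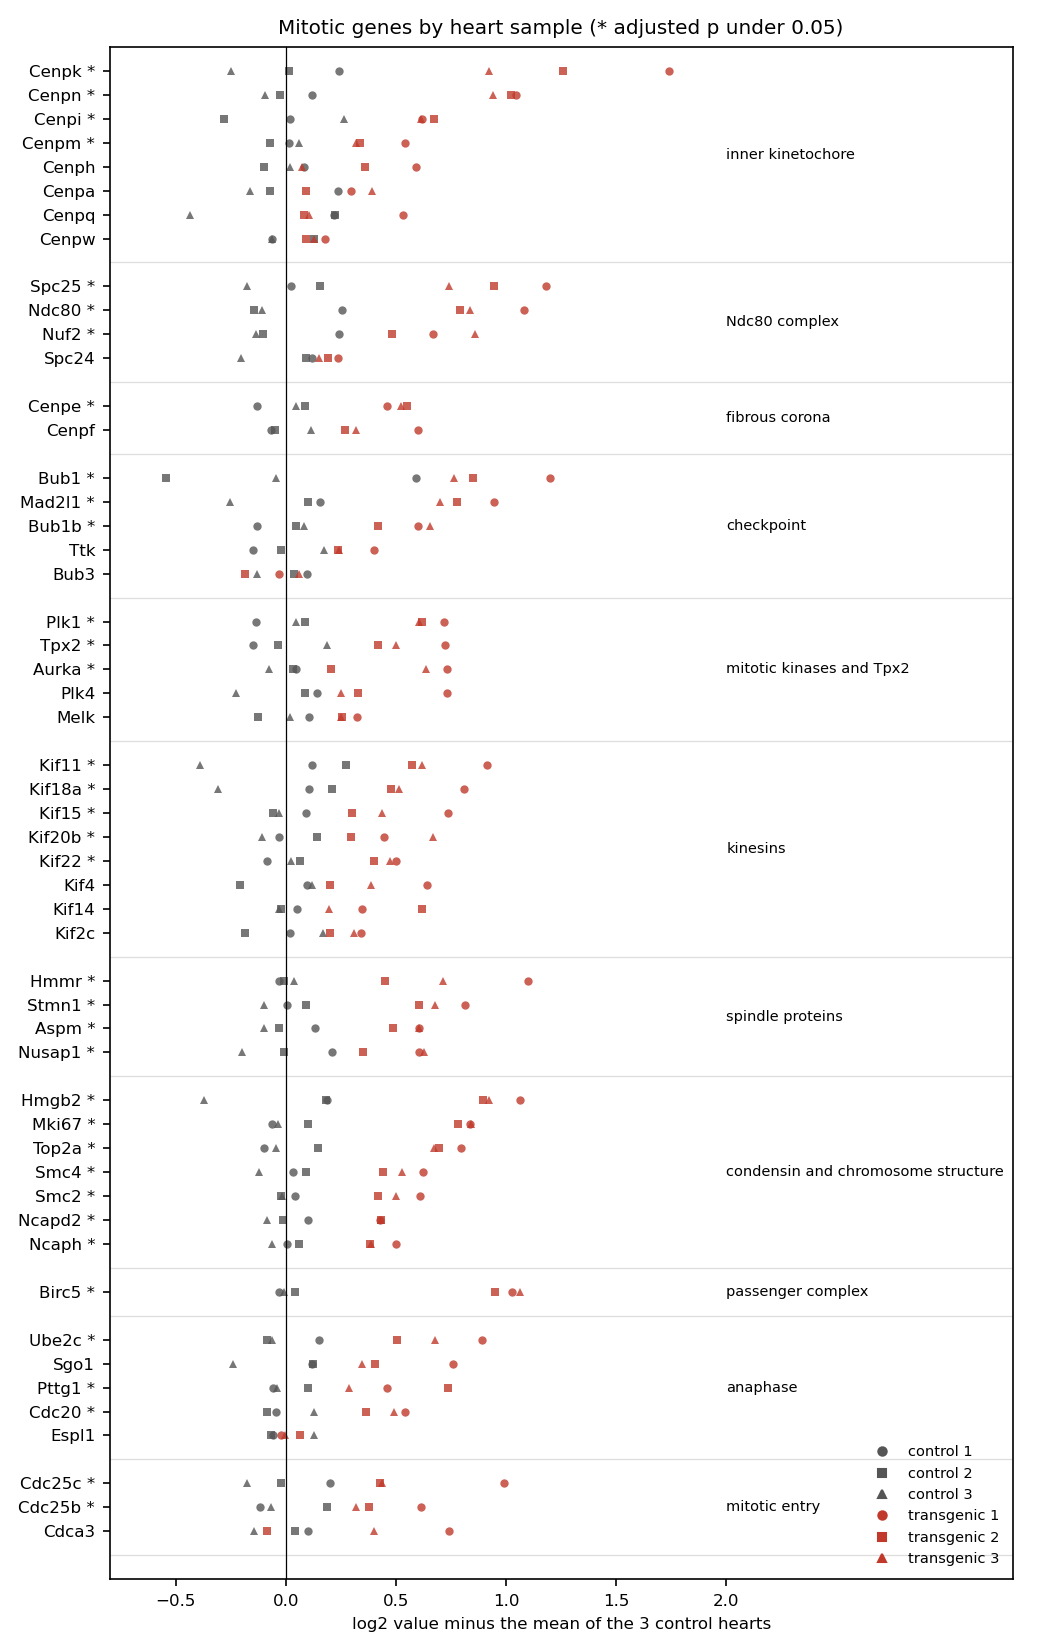
Each row is a member, grouped by role, and each point is a heart sample, plotted as its log2 value minus the mean of the 3 control samples of that gene. Control points lie around 0, and in 45 of 52 rows all 3 transgenic points lie to the right of every control point. An asterisk marks the 36 members with an adjusted p under 0.05.

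The members shared sequence features at their promoters, which the list did not use. The cell cycle genes homology region, or CHR, has the core TTTGAA and is bound by the MuvB complexes that repress mitotic genes in resting cells and activate them late in the cycle. CCAAT boxes are bound by NF-Y. Both motifs were searched on both strands of RefSeq promoters, 250 bases before to 50 after the transcript start, which were found for 47 of the 52 members (50 promoters). TTTGAA occurred in 30 of the 50 promoters (60%) against 17.9% of all 32851 promoters, which include those of noncoding genes. CCAAT occurred in 37 (74%) against 37.4%, and both together in 26 (52%) against 6.95%. A match to TTTGAA that began within 50 bases on either side of the start was present in 25 of the member promoters (50%), against 4.94% of all promoters. TTTAAA, a variant of the CHR that is its own reverse complement and may overlap TTTGAA by a few letters, occurred in 11 (22%) against 13.2%. Members that rose and members that did not pass the test both held these motifs. TTTGAA was found in 19 of 32 genes that rose and in 10 of 15 that did not pass the test, and CCAAT in 22 of 32 and 12 of 15.

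**Figure D2:**
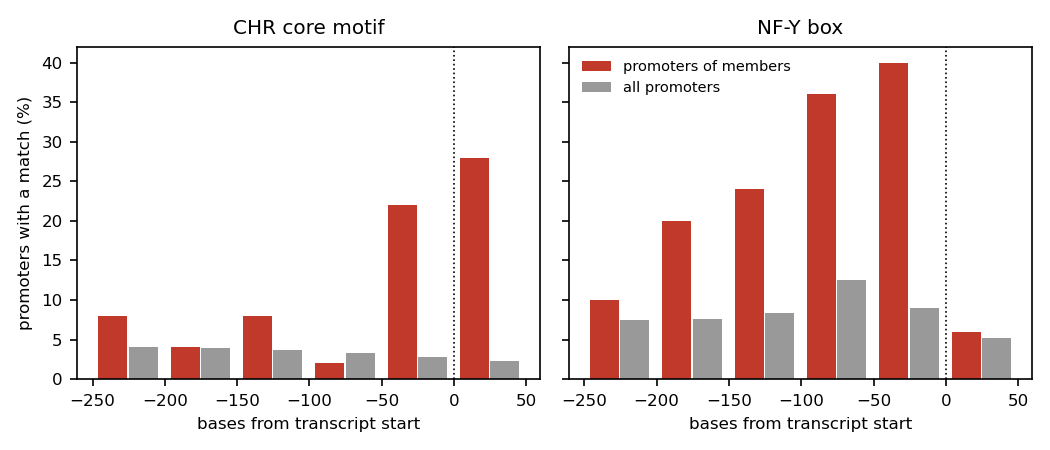
Share of promoters, in percent, with a match that begins in each 50-base bin, by distance from the transcript start, for the CHR core and the NF-Y (CCAAT) box. Promoters of the members (n = 50) exceed all promoters (n = 32851) most for the CHR core in the bins around the start, with 22% and 28% against 2.82% and 2.25%, and for CCAAT just before it, with 36% and 40% against 12.5% and 9.03%.

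The 250 bases before the start are shown for members with many, few or no matches, chosen after their values were seen. Capitals mark TTTGAA and CCAAT on the strand shown and, as TTCAAA and ATTGG, on the other. Top2a lies on chromosome 11 (RefSeq, GRCm38.p6, chr11:99024190-99024439, minus strand) and Ube2c on chromosome 2 (chr2:164769679-164769928, plus strand). Mki67 lies on chromosome 7 (chr7:135716380-135716629, minus strand) and Cdc20 on chromosome 4 (chr4:118437344-118437593, minus strand). Espl1 lies on chromosome 15 (chr15:102296043-102296292, plus strand) and Birc5 on chromosome 11 (chr11:117848987-117849236, plus strand).
Top2a: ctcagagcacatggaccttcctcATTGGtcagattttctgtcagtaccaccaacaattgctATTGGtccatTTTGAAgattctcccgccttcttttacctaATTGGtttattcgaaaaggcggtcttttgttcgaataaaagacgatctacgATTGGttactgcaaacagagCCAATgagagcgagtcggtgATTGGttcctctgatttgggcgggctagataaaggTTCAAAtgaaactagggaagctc
Ube2c: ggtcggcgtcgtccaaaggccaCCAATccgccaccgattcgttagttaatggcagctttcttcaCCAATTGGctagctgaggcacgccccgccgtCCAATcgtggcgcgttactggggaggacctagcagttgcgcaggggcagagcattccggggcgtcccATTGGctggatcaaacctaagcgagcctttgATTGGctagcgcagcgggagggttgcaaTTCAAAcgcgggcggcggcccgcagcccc
Mki67: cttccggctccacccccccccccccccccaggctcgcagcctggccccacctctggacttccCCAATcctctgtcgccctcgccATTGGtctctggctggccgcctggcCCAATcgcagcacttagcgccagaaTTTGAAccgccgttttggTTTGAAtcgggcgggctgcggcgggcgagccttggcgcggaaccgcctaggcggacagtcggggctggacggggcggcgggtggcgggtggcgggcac
Cdc20: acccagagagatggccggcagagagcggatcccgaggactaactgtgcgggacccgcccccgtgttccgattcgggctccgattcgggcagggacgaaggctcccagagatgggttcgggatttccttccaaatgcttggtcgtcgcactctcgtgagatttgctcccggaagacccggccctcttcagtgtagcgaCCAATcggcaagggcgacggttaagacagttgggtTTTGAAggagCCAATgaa
Espl1: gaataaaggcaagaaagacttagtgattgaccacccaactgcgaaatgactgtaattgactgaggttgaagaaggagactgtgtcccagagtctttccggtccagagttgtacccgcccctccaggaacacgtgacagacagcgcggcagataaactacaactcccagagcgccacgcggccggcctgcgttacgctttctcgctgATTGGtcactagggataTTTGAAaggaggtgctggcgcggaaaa
Birc5: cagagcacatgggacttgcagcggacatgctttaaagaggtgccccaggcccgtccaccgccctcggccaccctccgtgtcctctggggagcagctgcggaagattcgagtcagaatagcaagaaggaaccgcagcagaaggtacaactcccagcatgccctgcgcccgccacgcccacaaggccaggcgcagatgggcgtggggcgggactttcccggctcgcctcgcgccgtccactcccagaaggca
Top2a and Ube2c each had 6 CCAAT boxes, with 2 and 1 matches to TTTGAA in the stretch shown. Mki67 had 3 and 2. Cdc20 had 2 CCAAT boxes and 1 TTTGAA, and Espl1 had 1 of each. The stretch of Birc5 held neither, and had a TTTAAA, left in lower case, at position -220 from the start. Birc5 was among the strongest risers and Espl1 did not pass the test, as described below. No match in this window says only that these letters are not in it.

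The inner kinetochore, the layer of proteins that binds centromeric chromatin, had 4 of 8 members higher and 0 lower. Cenpk, a subunit of this layer, had log2 values of 4.16, 3.93 and 3.67 in controls 1, 2 and 3 and of 5.66, 5.18 and 4.84 in transgenic samples 1, 2 and 3. The difference of 1.31 on the log2 scale (SE 0.20, limma adjusted p = 0.00481) was the largest of all members, and the transgenic samples lay apart from each other (SD 0.41) yet all above the controls. The Cenpk probe was dim, at percentile 24.5 of all genes by mean value. Cenpn, which binds the centromeric nucleosome directly, was at log2 values of 6.53, 6.38 and 6.31 in the control group and 7.45, 7.43 and 7.35 in the transgenic group. It rose by 1.00 (SE 0.091, adjusted p = 0.000435), and the samples of each group lay close together. Cenpi and Cenpm, further subunits of the same layer, rose by 0.64 and 0.40. The call of Cenpi was lost without control 1 or any of the transgenic samples (adjusted p 0.0545 to 0.0708), and that of Cenpm without any sample but control 3 (adjusted p 0.0576 to 0.108). Cenpa, the histone variant that marks the centromere, was at 9.57, 9.27 and 9.17 in control and 9.63, 9.43 and 9.73 in transgenic hearts, overlapping values whose difference of 0.26 did not pass (95% interval -0.030 to 0.55, adjusted p = 0.249). Cenph, Cenpq and Cenpw had log2 fold changes of 0.34, 0.24 and 0.13, with adjusted p-values of 0.143, 0.500 and 0.421 and overlapping groups.

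The Ndc80 complex, which grips the microtubule end, had 3 of its 4 subunits higher. Spc25 had log2 values of 6.87, 7.003 and 6.67 in controls and 8.03, 7.79 and 7.59 in transgenic hearts, a difference of 0.96 (SE 0.13, adjusted p = 0.00312). Ndc80 itself measured 6.29, 5.89 and 5.92 in controls 1 to 3 and 7.11, 6.82 and 6.87 in transgenic samples 1 to 3 (log2), a difference of 0.90 (SE 0.13, adjusted p = 0.00383). For both, the lowest transgenic sample was well above the highest control sample. Nuf2, the partner of Ndc80 at the microtubule-binding end of the complex, rose by 0.67 (adjusted p = 0.0150), a call lost without transgenic 1 (adjusted p = 0.0564) or transgenic 3 (adjusted p = 0.0548). Spc24, the partner of Spc25, was at log2 values of 6.58, 6.56 and 6.26 in the control group and 6.70, 6.66 and 6.62 in the transgenic group. Its groups did not overlap either, but the difference of 0.19 did not pass (95% interval -0.048 to 0.43, adjusted p = 0.305). In the fibrous corona, the outermost layer of the kinetochore, Cenpe, a kinesin that moves chromosomes to the spindle equator, had log2 values of 5.45, 5.67 and 5.63 in controls and 6.04, 6.13 and 6.11 in transgenic hearts. It rose by 0.51 (SE 0.092, adjusted p = 0.00945). Cenpf, a large coiled-coil protein of the same layer, had a value of 0.39 that just missed the threshold (adjusted p = 0.0543), and passed with array weights (adjusted p = 0.0302) and with the dimmest genes left out (adjusted p = 0.0352).

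Of the 5 checkpoint genes, 3 rose. Mad2l1, which binds Cdc20 and keeps it inactive, measured 7.84, 7.78 and 7.43 in controls 1 to 3 and 8.63, 8.46 and 8.38 in transgenic samples 1 to 3 (log2), a difference of 0.81 (SE 0.13, adjusted p = 0.00502). Bub1b, the BubR1 protein of the same inhibitory complex, rose by 0.56 (SE 0.10, adjusted p = 0.00983). Bub1, a kinase that recruits checkpoint proteins to the kinetochore, was at log2 values of 6.33, 5.19 and 5.70 in the control group and 6.94, 6.59 and 6.50 in the transgenic group. The control samples of Bub1 were spread over more than 1 log2 unit (SD 0.57), the widest of the members, and control 1 lay just below the lowest transgenic sample. The difference for Bub1 was 0.94 (SE 0.25, adjusted p = 0.0463). It no longer passed when control 2 (adjusted p = 0.0836), control 3 (adjusted p = 0.0955) or any of the transgenic samples (adjusted p 0.0846 to 0.156) was left out, nor with array weights (adjusted p = 0.0854). Ttk, the kinase that starts checkpoint signalling, had a value of 0.29 (95% interval 0.049 to 0.53, adjusted p = 0.123), and passed with array weights (adjusted p = 0.0439). Bub3, an adaptor that carries Bub1 and BubR1 to the kinetochore, had log2 values of 8.81, 8.75 and 8.58 in controls and 8.68, 8.52 and 8.77 in transgenic hearts. Its groups overlapped and its difference of -0.053 (95% interval -0.29 to 0.18, adjusted p = 0.804) was the lowest of the members and the only negative one.

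Among mitotic kinases and their partners, 3 of 5 rose. Plk1, which acts from mitotic entry to cytokinesis, measured 6.49, 6.72 and 6.67 in controls 1 to 3 and 7.35, 7.25 and 7.23 in transgenic samples 1 to 3 (log2). It rose by 0.65 (SE 0.094, adjusted p = 0.00375), with all transgenic samples close to each other. Tpx2, which activates Aurora A on the spindle, was at log2 values of 5.87, 5.98 and 6.20 in the control group and 6.74, 6.44 and 6.52 in the transgenic group, and rose by 0.55 (SE 0.12, adjusted p = 0.0214). Aurka, which encodes Aurora A, rose by 0.52 (adjusted p = 0.0417), with transgenic 2 at 6.95 nearer to the controls than transgenic 1 at 7.47 and transgenic 3 at 7.38. Tpx2 no longer passed with control 1 (adjusted p = 0.0761), control 2 (adjusted p = 0.0570), transgenic 1 (adjusted p = 0.0810) or transgenic 3 (adjusted p = 0.0565) left out, nor Aurka with any sample but transgenic 2 left out (adjusted p 0.0783 to 0.140). Plk4, which starts centriole duplication, and Melk, a kinase expressed in dividing cells, had values of 0.44 and 0.28 (adjusted p = 0.101 and 0.0942), in both cases without overlap between groups.

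Mitotic kinesins, motors that push, pull or shorten spindle microtubules, rose in 5 of 8 cases. Kif11, the motor that pushes the spindle poles apart, had log2 values of 6.67, 6.82 and 6.16 in controls and 7.46, 7.12 and 7.16 in transgenic hearts. It rose by 0.70 (SE 0.17, adjusted p = 0.0333), with control 3 well below the other controls. Kif18a, which dampens chromosome movements at the spindle equator, measured 5.25, 5.36 and 4.84 in controls 1 to 3 and 5.96, 5.62 and 5.66 in transgenic samples 1 to 3 (log2), again with the lowest value in control 3. It rose by 0.60 (SE 0.15, adjusted p = 0.0362). Kif15, which helps to keep the spindle bipolar, Kif20b, which acts in cytokinesis, and Kif22, which moves chromosome arms, rose by 0.49, 0.47 and 0.46 (adjusted p = 0.0344, 0.0370 and 0.0112). Each of these calls was lost in some leave-outs. Kif11 was lost without control 1 or any transgenic sample (adjusted p 0.0664 to 0.119) and Kif18a without any sample but control 2 (adjusted p 0.0592 to 0.126). Kif15 was lost without any sample but transgenic 2 (adjusted p 0.0668 to 0.0954). Kif20b did not pass with control 1, control 3, transgenic 1 or transgenic 3 left out (adjusted p 0.0835 to 0.110), and Kif22 without transgenic 1 (adjusted p = 0.0517). Kif4, a chromosome-bound motor, Kif14, a cytokinesis motor, and Kif2c, which dismantles microtubule ends, had values of 0.41, 0.39 and 0.28 (adjusted p = 0.0927, 0.0668 and 0.135). Their groups did not overlap.

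All 4 spindle proteins of the list rose. Hmmr, a microtubule-binding protein of the spindle poles, was at log2 values of 5.31, 5.33 and 5.38 in the control group and 6.44, 5.79 and 6.05 in the transgenic group. The controls lay within a narrow range (SD 0.035) and the transgenic samples were spread (SD 0.33), and Hmmr rose by 0.75 (SE 0.15, adjusted p = 0.0147), a call lost without control 1 (adjusted p = 0.0522). Stmn1, stathmin, which destabilises microtubules until it is phosphorylated in mitosis, had log2 values of 7.56, 7.64 and 7.45 in controls and 8.36, 8.15 and 8.23 in transgenic hearts. It rose by 0.70 (SE 0.096, adjusted p = 0.00294). Aspm, which focuses spindle poles, rose by 0.56 (SE 0.095, adjusted p = 0.00705). Nusap1, which bundles microtubules near chromatin, rose by 0.53 (SE 0.13, adjusted p = 0.0308), which did not hold when control 2, control 3, transgenic 1 or transgenic 3 was left out (adjusted p 0.0653 to 0.109).

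All 7 measured genes of condensin and chromosome structure rose. Mki67, the proliferation marker that coats mitotic chromosomes, measured 6.85, 7.01 and 6.87 in controls 1 to 3 and 7.74, 7.69 and 7.75 in transgenic samples 1 to 3 (log2). The transgenic samples of Mki67 were nearly equal (SD 0.033), and the difference was 0.82 (SE 0.086, adjusted p = 0.000901). Hmgb2, a chromatin protein abundant in dividing cells, was at log2 values of 6.49, 6.49 and 5.93 in the control group and 7.37, 7.20 and 7.23 in the transgenic group, with control 3 below the other controls. Its difference was 0.96 (SE 0.15, adjusted p = 0.00533). Top2a, the topoisomerase that untangles sister chromatids, rose by 0.72 (SE 0.096, adjusted p = 0.00256). The 4 measured genes of condensin, the ring that compacts mitotic chromosomes, rose by similar amounts. The core subunits Smc4 and Smc2 rose by 0.53 and 0.51 (adjusted p = 0.00947 and 0.00784), and the condensin I subunits Ncapd2 and Ncaph by 0.43 and 0.42 (adjusted p = 0.0147 and 0.0155). The Ncapd2 call was lost without transgenic 1, 2 or 3 (adjusted p 0.0504 to 0.0597) and that of Ncaph without control 1, transgenic 1 or transgenic 2 (adjusted p 0.0506 to 0.0680). Birc5, survivin, the subunit that brings the chromosomal passenger complex to the centromere, had log2 values of 5.26, 5.33 and 5.28 in controls and 6.32, 6.24 and 6.35 in transgenic hearts. With 1.01 (SE 0.082, adjusted p = 0.000309) it had the lowest adjusted p of the members, and the gap between groups far exceeded the spread within them.

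Of 5 genes that act at anaphase, 3 rose. Ube2c, the ubiquitin-conjugating enzyme of the anaphase-promoting complex, measured 7.27, 7.03 and 7.05 in controls 1 to 3 and 8.01, 7.62 and 7.80 in transgenic samples 1 to 3 (log2), and rose by 0.69 (SE 0.12, adjusted p = 0.00811). Pttg1, securin, which holds separase inactive until anaphase, was at log2 values of 6.70, 6.85 and 6.71 in the control group and 7.21, 7.49 and 7.04 in the transgenic group. It rose by 0.49 (SE 0.12, adjusted p = 0.0348), with the highest value in transgenic 2. Cdc20, the activator of the complex, rose by 0.47 (SE 0.096, adjusted p = 0.0172). The Pttg1 call was lost without any sample but transgenic 3 (adjusted p 0.0506 to 0.105), and that of Cdc20 when control 1, control 2, transgenic 1 or transgenic 3 was left out (adjusted p 0.0519 to 0.0735). Sgo1, listed as Sgol1, which shields centromeric cohesin, had a value of 0.50 that just missed the threshold (adjusted p = 0.0552). It passed with the dimmest genes left out (adjusted p = 0.0382) or with an intensity trend in the variance (adjusted p = 0.0449). Espl1, separase, the protease that cuts cohesin, had log2 values of 5.67, 5.66 and 5.85 in controls and 5.70, 5.79 and 5.72 in transgenic hearts. Its groups overlapped, and the difference of 0.012 (95% interval -0.19 to 0.22, adjusted p = 0.957) did not pass.

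Of 3 genes of mitotic entry, the phosphatases Cdc25c and Cdc25b, which activate the mitotic cyclin-dependent kinase, rose with adjusted p-values close to the threshold. Cdc25c measured 5.51, 5.28 and 5.13 in controls 1 to 3 and 6.30, 5.73 and 5.74 in transgenic samples 1 to 3 (log2), highest in transgenic 1, and rose by 0.62 (SE 0.17, adjusted p = 0.0459). Cdc25b was at log2 values of 6.11, 6.42 and 6.16 in the control group and 6.85, 6.61 and 6.55 in the transgenic group, and rose by 0.44 (SE 0.12, adjusted p = 0.0467). The Cdc25c call was lost without any of the samples (adjusted p 0.0581 to 0.108), and that of Cdc25b without any but control 2 (adjusted p 0.0696 to 0.156). Cdca3, which helps to remove the mitotic inhibitor Wee1, had log2 values of 5.93, 5.87 and 5.68 in controls and 6.56, 5.74 and 6.22 in transgenic hearts. Its transgenic samples lay on both sides of the controls' highest value, and the difference of 0.35 did not pass (adjusted p = 0.284).

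**Figure D3:**
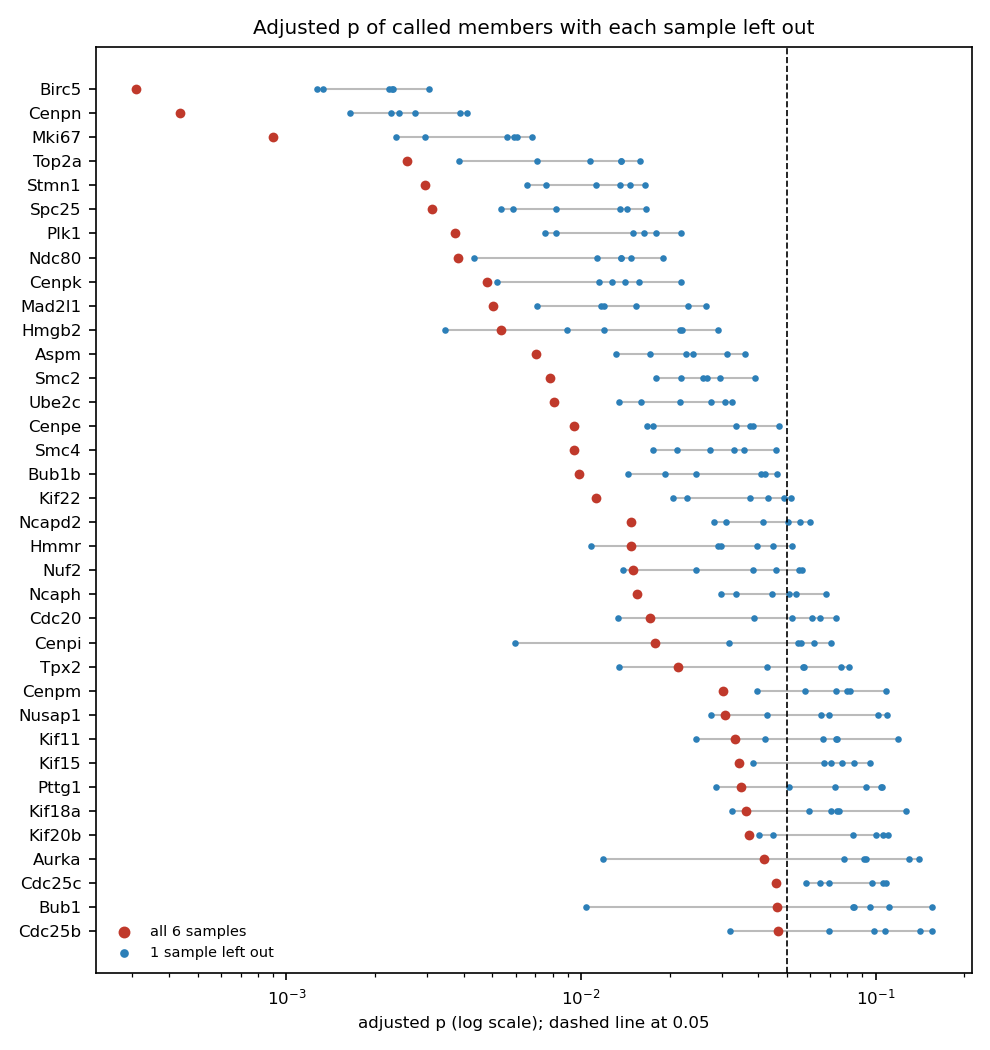
For each of the 36 members called, the adjusted p with all 6 samples and with each sample left out in turn, on a log scale, with a dashed line at 0.05. For 17 members all points lie left of the line, from Birc5 to Bub1b, and for 19 at least 1 leave-out lies to the right of it.

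Leaving out a sample lowers the number of arrays as well as removing its values. In all 6 leave-outs, 17 of the 36 members stayed past the threshold. They are Cenpk, Cenpn, Spc25, Ndc80, Cenpe, Mad2l1, Bub1b, Plk1, Stmn1, Aspm, Mki67, Hmgb2, Top2a, Smc2, Smc4, Birc5 and Ube2c, whose differences ranged from 0.51 to 1.31 on the log2 scale. The other 19 had differences from 0.40 to 0.94. With a term for sex, read from Xist and Y-linked genes, 28 members rose. Over all genes 1878 were called, in either direction, against 2465 without that term. Kif14 was gained (adjusted p = 0.0465) and Cenpm, Aurka, Kif11, Kif15, Kif18a, Kif20b, Nusap1, Cdc25b and Cdc25c were lost (adjusted p 0.0573 to 0.0921). With the quantiles normalized again 28 rose, without Cenpm, Bub1, Aurka, Kif18a, Kif20b, Pttg1, Cdc25b and Cdc25c (adjusted p 0.0515 to 0.0736). The number called over all genes was then higher, at 2812. With each array centred on its median 31 rose, without Aurka, Kif18a, Kif20b, Cdc25b and Cdc25c (adjusted p 0.0534 to 0.0737), and 2347 genes were called over all genes. Cdc25c was also lost with array weights (adjusted p = 0.0616). Bub3 and Espl1, which were not called, changed sign in 1 and 5 of the settings tried.

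The transgenic samples differed in how far the members stood above the controls. The median over the 52 members of the log2 value minus the control mean was 0.62 in transgenic 1, 0.42 in transgenic 2 and 0.50 in transgenic 3. In the controls it was 0.05, 0.02 and -0.06. Over all genes the same median lay between -0.04 and 0.01 in every sample. Transgenic 1 had the highest value of its group for 37 of 52 members and transgenic 2 the lowest for 32. In the control group, control 3 had the lowest value for 25 members.

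The hearts also differed in markers of cell types, which were set beside the members. Of 9 cardiomyocyte markers 0 were called (limma, with 1 higher and 1 lower at an unadjusted p under 0.05). Their summed level, as the log2 of the sum of linear values, was 15.98 to 15.997 in control and 15.92 to 15.95 in transgenic hearts. Such a sum mostly follows the brightest probes of a list. Of 8 endothelial markers 5 fell and 0 rose, Pecam1, Cdh5, Tie1, Emcn and Esam, and the summed level was 12.75 to 12.82 in control and 12.31 to 12.51 in transgenic hearts. Of 8 macrophage markers 7 fell, all but Cd68, and the summed level was 10.28 to 10.43 in control and 9.49 to 9.65 in transgenic hearts. Of 9 fibroblast markers 1 rose, Postn, with a summed level of 12.99 to 13.07 in control and 12.96 to 13.05 in transgenic hearts. That sum leaned on Dcn, the brightest of the 9, whose log2 fold change was -0.21. The median log2 fold change of the 9 was 0.16, and 5 of 9 were positive. Of 7 smooth muscle and pericyte markers 3 fell, Rgs5, Acta2 and Pdgfrb, and 1 rose, Cnn1. The summed level, which leaned on the bright probes of Acta2 and Rgs5, was 13.56 to 13.71 in control and 12.99 to 13.16 in transgenic hearts. Of 5 epicardial markers Tbx18 rose and Msln fell, with a summed level of 9.70 to 9.91 in control and 9.40 to 9.69 in transgenic hearts. No erythroid, lymphoid or neutrophil marker was called, with summed levels of 7.18 to 7.31 in control and 7.23 to 7.43 in transgenic hearts, 6.98 to 7.17 in control and 6.71 to 7.15 in transgenic hearts and 6.64 to 6.74 in control and 6.66 to 6.74 in transgenic hearts, and the only Schwann cell marker with its own probe, Sox10, fell from between 5.33 and 5.40 to between 4.66 and 4.97. Only 2 of the 10 erythroid markers, Slc4a1 and Klf1, had a probe of their own. Of the marker calls, those of Pecam1, Adgre1, C1qb, C1qc, Csf1r, Mrc1, Rgs5, Cnn1, Tbx18 and Sox10 held in all 6 leave-outs. Those of Cdh5, Fcgr1, Postn and Msln were lost in all 6, and that of Pdgfrb in 5. Emcn and Esam were each lost in 4, Tie1 and C1qa in 3 and Acta2 in 2. Transgenic 1, where the members were highest, also had the lowest endothelial and macrophage medians, at -0.51 and -0.81 against the control mean. In transgenic 2, where the members were lowest in the group, these medians were -0.33 and -0.66. They were less low in transgenic 3, at -0.27 and -0.56, so the order of the samples differed between the members and these markers. The part of these cell types in the rise of the mitotic genes was not tested.

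**Figure D4:**
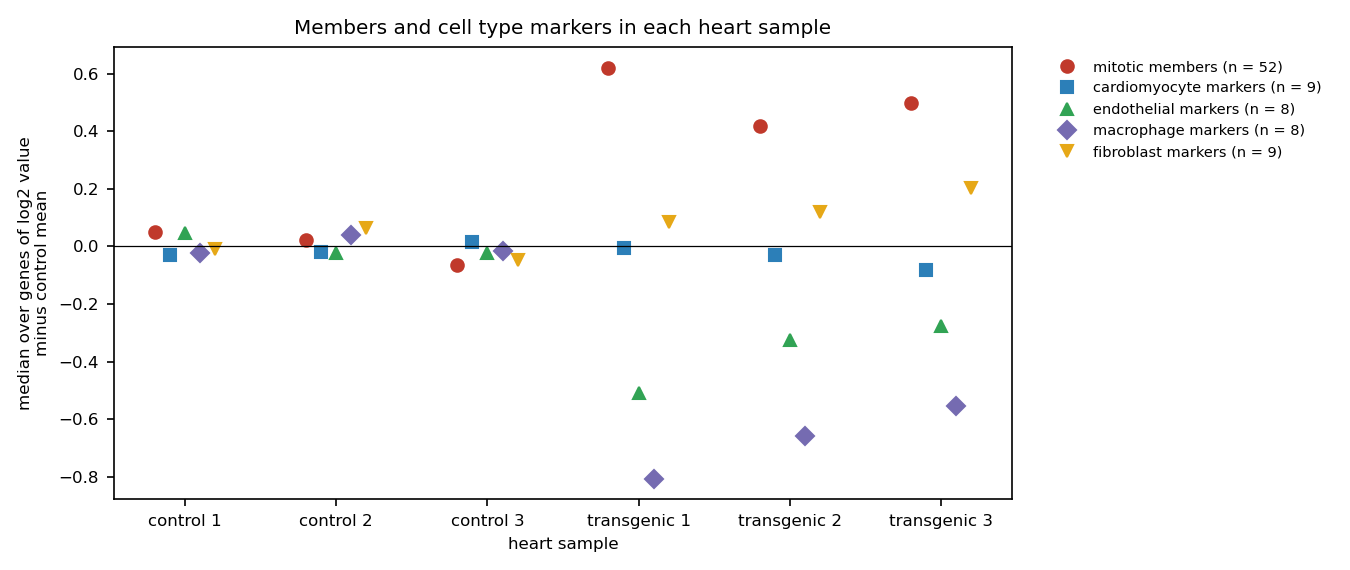
For each heart sample, the median over genes of the log2 value minus the control mean, for the 52 members and 4 marker lists. In the transgenic samples the members lie at 0.42 to 0.62, cardiomyocyte markers at -0.08 to -0.004, fibroblast markers at 0.09 to 0.20, endothelial markers at -0.51 to -0.27 and macrophage markers at -0.81 to -0.56.

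Other genes of the same machinery were listed by complex. Of 28 further kinetochore and passenger genes, 14 rose and 0 fell (21 and 0 at an unadjusted p under 0.05, limma), with a median of 0.42. Zwilch, of the complex that recruits dynein to kinetochores, rose by 0.89, Dsn1, of the Mis12 complex, by 0.83, and Knl1, the scaffold for Bub1, and Ska3, of the complex that couples kinetochores to shrinking microtubules, by 0.71 and 0.71 (adjusted p = 0.00995, 0.00454, 0.00485 and 0.00500). These 4 calls held in all 6 leave-outs, but they were picked for the smallest p of the list in these same samples. The count of 14 dropped to 4 when transgenic 1 was left out, 6 when it was control 1, and 7 when it was transgenic 2 or transgenic 3. With arrays centred on the median it was 9. The Ska3 probe was dim, at percentile 16.5 of all genes by mean value. Of 30 further spindle and centrosome genes 6 rose and 0 fell (13 and 0 unadjusted), with a median of 0.21. Haus4 and Haus2, subunits of augmin, which branches microtubules, rose by 0.64 and 0.40, Cep192, a centrosome scaffold, by 0.57, and Tacc3, a spindle protein, by 0.51 (adjusted p = 0.00927, 0.0301, 0.00437 and 0.0202). The count of 6 was 2 without control 1 and 2 without transgenic 1, and 11 with the dimmest genes left out. The Haus2 call was lost without any sample but control 2 (adjusted p 0.0569 to 0.108), and that of Tacc3 without control 1 or transgenic 1 (adjusted p 0.0611 to 0.0637).

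Of 17 cohesin and condensin II genes, 4 rose and 0 fell (5 and 0 unadjusted), with a median of 0.16. Esco2, which acetylates cohesin during replication, rose by 0.87 (adjusted p = 0.00415). The condensin II subunits Ncapg2 and Ncapd3 rose by 0.56 and 0.40 (adjusted p = 0.0160 and 0.0190), and Nipbl, which loads cohesin, by 0.34 (adjusted p = 0.0342). Of these 4 calls, 1 was left when transgenic 1 was removed, and 2 when control 1, transgenic 2 or transgenic 3 was removed. Esco2 was called in every leave-out and Nipbl in none (adjusted p 0.0532 to 0.119). Ncapg2 was lost without transgenic 1 or transgenic 3 (adjusted p 0.0614 to 0.0624) and Ncapd3 without control 1, transgenic 1 or transgenic 2 (adjusted p 0.0533 to 0.0818). The ring subunits of cohesin, Smc1a, Smc3 and Rad21, had values of -0.041, 0.030 and -0.0036 (95% intervals -0.23 to 0.15, -0.25 to 0.31 and -0.24 to 0.24). Those 3 were named after their values were seen.

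Of 17 genes of the anaphase-promoting complex and its partners, 1 rose and 1 fell, and the median was 0.08. Fbxo5, an inhibitor of the complex, rose by 0.58 (SE 0.10, adjusted p = 0.00984). Ube2d1, a ubiquitin-conjugating enzyme of broad use, had a log2 fold change of -0.39 (SE 0.10, adjusted p = 0.0430), a fall that was lost without any sample but transgenic 3 (adjusted p 0.0633 to 0.149). Of the 13 subunits of the complex itself 0 were called (limma, with 1 higher and 0 lower at an unadjusted p under 0.05). Their differences ran from -0.11 to 0.35, with a median of 0.09. The promoters of this list held TTTGAA in 3 of 18 (16.7%), close to the 17.9% of all promoters. The share was 8 of 25 (32%) for the further kinetochore and passenger genes and 7 of 28 (25%) for the spindle and centrosome genes. For the cohesin and condensin II genes it was 4 of 15 (26.7%). CCAAT occurred in 8 of 18 promoters of the anaphase-promoting complex list (44.4%), against 37.4% of all promoters. It occurred in 10 of 25 (40%) for the further kinetochore and passenger genes and 15 of 28 (53.6%) for the spindle and centrosome genes. In the cohesin and condensin II genes CCAAT was found in 6 of 15 (40%). Whether either motif bears on which genes rose was not tested.

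**Figure D5:**
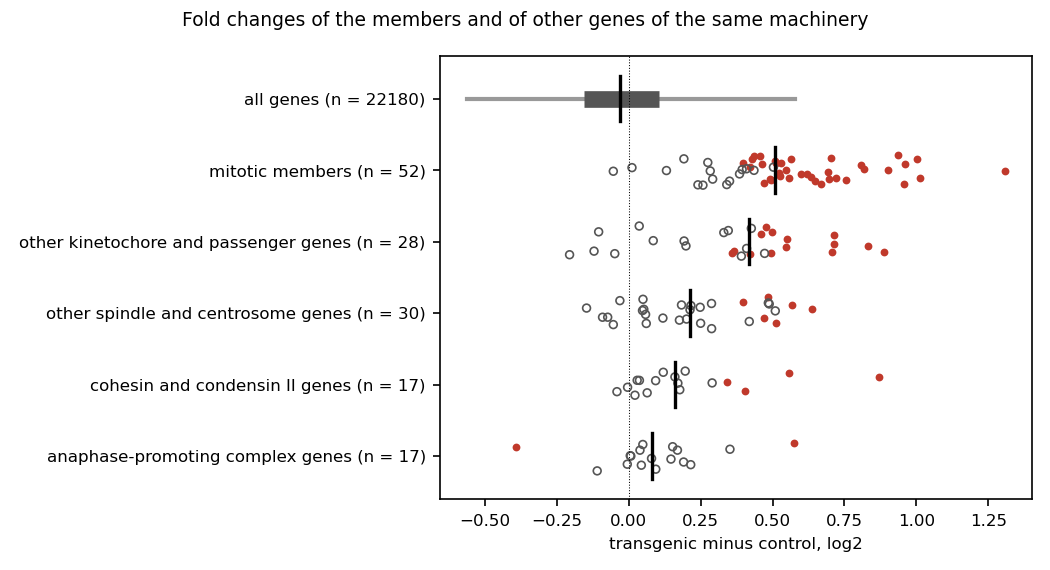
Log2 fold change, transgenic minus control, of the members and 4 lists of other genes, with filled points for an adjusted p under 0.05, open points for the rest and a bar at each median. For all 22180 genes the thick line spans the interquartile range and the thin line the middle 95%. The medians are -0.03 for all genes, 0.51 for the members, and 0.42, 0.21, 0.16 and 0.08 for the other lists.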

How the data were processed

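Heart RNA of 3 control and 3 transgenic samples was amplified and hybridised to 1 Affymetrix array each. The deposited values are log2 intensities, which the authors made with the oligo package and RMA, per the submitters' processing notes. Array medians lay between 5.45 and 5.54. Of 41345 probes, 23521 were annotated with 1 gene symbol, and for each gene the probe with the highest mean was kept (22180 genes, none filtered). Groups were compared with limma (version 3.58.1, R 4.3.3: lmFit and eBayes, 4 residual degrees of freedom) and p-values adjusted by Benjamini-Hochberg over all genes. A gene is called at an adjusted p under 0.05. Simulated data of this design had 50 of 22180 genes changed at each fold tried. There limma called 58% of genes changed by 1.5-fold, 78% of those changed by 2-fold and 4% at 1.25-fold. The measured data gave 2465 called genes, and the Benjamini-Hochberg cutoff depends on how many genes differ. The simulated percentages therefore cannot be read as detection rates of the comparison made here. A value that did not pass does not show an unchanged gene. The number of arrays limits the precision. Values of different probes were set against each other only in the summed marker levels, the percentiles by mean value and the choice of brighter or dimmer probes. Probes differ in how they respond to RNA, so these are not amounts of RNA.

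The members, the lists of other genes and the markers were chosen with earlier results of these data known. Every measured member is named. In each role, the 2 with the largest change among members called without overlap between groups, and Mki67, Birc5, Stmn1, Hmgb2 and Bub3, are given in every sample. Of each list of other genes the up to 4 with the smallest p are named. Cenpa, Spc24, Espl1 and Cdca3, which were not called, are also given in every sample and were chosen after their values were seen. Alternatives were other probe rules, normalizations, filters and variance models, a sex term, a replicate block, a minimum fold of 1.5 and each sample left out. Promoters and microRNAs are those of RefSeq, in which all 52 measured members were matched by gene ID.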

Additional observations from a re-analysis of the deposited data

How the results depend on the processing

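Of the 6 leave-outs and 10 other settings tried, none gave a member a call in the lower direction. The median of the members stayed between 0.45, with quantiles normalized again, and 0.57, without transgenic 2. Some settings could not move it, since they leave the fold changes as they are. These were the variance trend, the minimum fold, the test of every probe and the replicate block. Leaving out each sample in turn gave 18 to 28 members higher and 1171 to 2249 genes called. The same leave-outs gave 4 to 10 further kinetochore and passenger genes higher, 2 to 5 spindle and centrosome genes, 1 to 4 cohesin and condensin II genes, and 0 to 1 genes of the anaphase-promoting complex list lower. Tested against a minimum fold of 1.5, 90 genes were called, with 0 members higher and 0 in each of the 4 lists of other genes. With arrays centred on the median, 9 further kinetochore and passenger genes rose, and with the dimmest genes left out, 11 spindle and centrosome genes. The 1 gene of the anaphase-promoting complex list that fell, Ube2d1, was not called (0 lower) with the sex term or the replicate block. Same-numbered samples did not vary together (correlations of their deviations 0.02, -0.13 and 0.01). This gave no sign of pairing by number but cannot show that the samples were unpaired. With the replicate block, 36 members rose and 1996 genes were called, with Kif4, Plk4 and Sgo1 gained and Cdc25b, Cenpm and Kif20b lost. The causes of these shifts were not tested. In each leave-out, fewer samples and the loss of that sample's values cannot be told apart. Probes of dim genes limit what could be measured: 4 members, Cenph, Cenpk, Cenpw and Kif14, were among the dimmest genes.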
